A study of Mus musculus with 2 samples.

Results

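The 10 genes described here encode the route from store calcium to NFAT in T cells, and were chosen by function, with earlier results of these data known, from the 48321 genes listed in the count tables. They are *Itpr1* (the IP3 receptor), *Stim1*, *Stim2* and *Orai1* (store-operated calcium entry), *Ppp3ca*, *Ppp3cb* and *Ppp3r1* (calcineurin), and *Nfatc1*, *Nfatc2* and *Nfatc3* (the transcription factors). RNA-seq was carried out on mature thymocytes of mice labelled MHC-II0:CD8ab Tg on a C57Bl/6 background, in 2 libraries of 1 group, so that no comparison of genotypes or treatments could be made. The mice lack I-Ab and therefore MHC class II, carry disrupted *Cd8a* and *Cd8b1* genes on both chromosomes (Cd8 Δab/Δab), and express CD8α and CD8β cDNAs from the *Rosa26* locus after *Cd4-Cre* removes a stop cassette, which gave a surface CD8 level below that of the endogenous genes. The study describes the sorted cells as CD4- mature thymocytes, and defines mature thymocytes by flow cytometry as CD24lo TCRβhi. The sample titles call them CD4-CD8- whereas the cell type field calls them CD8+, and this difference in the labels was not resolved here. Neither the age of the mice nor the number of animals per library is given in the labels.

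When a T-cell receptor (TCR) is engaged, phospholipase C-γ makes inositol trisphosphate (IP3), which opens IP3 receptors and releases calcium from the endoplasmic reticulum. STIM proteins sense the emptied store and open ORAI channels in the plasma membrane, and the sustained entry of calcium activates, through calmodulin, the phosphatase calcineurin. Calcineurin removes phosphates from NFAT proteins, which then enter the nucleus, and kinases such as GSK3, casein kinase 1 and DYRK reverse this step. In the thymus the pathway takes part in positive selection. These steps act on calcium and on protein, neither of which was measured here: the values below are amounts of RNA.

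NFAT proteins bind DNA at the core GGAAA, read on the other strand as TTTCC, which shares GGAA with binding sites of the ETS family. Both spellings were searched in RefSeq promoters of GRCm38.p6, each running from 250 bases before to 50 after a gene's start. Of 32851 promoters 61.3% held a match. Among the 10 genes, 7 had an entry, with 9 promoters, and 4 of these 9 (44.4%) held a match: both promoters of *Nfatc2*, 1 of *Nfatc3* and that of *Ppp3cb*. Those of *Ppp3r1*, *Stim1*, *Stim2* and *Orai1* had none in this window, and *Nfatc1*, *Ppp3ca* and *Itpr1* had no entry in the table. Among genes known as NFAT targets in T cells, 13 of 15 promoters of 10 genes (86.7%) held a match. Several of these 15 are overlapping promoters of *Egr2* that hold the same match. They are therefore not 15 separate stretches, and the shares were not compared by a test. The 4 stretches below, chosen after the matches were counted, show promoters of 2 of the 10 genes beside an internal promoter of *Rcan1*, which encodes a calcineurin inhibitor, and the promoter of *Il4*, a cytokine gene known as an NFAT target. All 4 genes lie on the minus strand, the stretches are written 5′ to 3′ along the gene, and capitals mark GGAAA or TTTCC.
*Nfatc2*, chr2:168601828-168601857, from 200 to 171 bases before the start: TTTCCatggcgctgagtaaacaggaGGAAA
*Ppp3cb*, chr14:20546639-20546668, from 95 to 66 bases before the start: atcccttggactgTTTCCgtttctgtagta
*Rcan1*, chr16:92400225-92400254, from 176 to 147 bases before the start: ttgacgtcacctcTTTCCagtagaaattta
*Il4*, chr11:53618717-53618746, from 81 to 52 bases before the start: aaatTTTCCaatgtaaactcatTTTCCctt
A match of 5 letters is a description of the sequence and not a binding site, and binding was not measured here.

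Replicate 1 held 16732644 counts on genes and replicate 2 held 16245849, which were 40.6% and 41.2% of the uniquely aligned reads, and levels are given as counts per 1000000 of these totals (CPM). A gene with 3 counts or fewer in a library (0.179 CPM in replicate 1 and 0.185 CPM in replicate 2) was taken as not detectable at this depth. The 6 T-cell markers (*Cd3e*, *Cd3d*, *Cd3g*, *Trac*, *Cd5* and *Cd2*) summed to 2513 and 2330 CPM, and *Cd8a* had 158 and 171 CPM and *Cd8b1* 775 and 786 CPM, whereas *Cd4* had 12 and 27 counts. For *Cd8a* and *Cd8b1*, counts per gene do not separate RNA of the *Rosa26* cDNAs from RNA of the disrupted genes. The 5 markers of double-positive thymocytes summed to 17.3 and 16.1 CPM, of which *Dntt* made up 13.4 and 13.0. B-cell markers summed to 1.79 and 1.23 CPM, myeloid markers to 12.0 and 13.3, epithelial markers to 3.65 and 4.0, markers of innate lymphocytes and NK cells to 43.0 and 56.0, and the 3 erythroid markers were at 0. Of the myeloid sum *Csf1r* made up 9.74 and 11.8 CPM, while *Lyz2* had 0 and 2 counts. The innate sum held *Klrb1c* (22.1 and 27.5 CPM), *Zbtb16* (18.2 and 21.6) and *Ncr1* (2.69 and 6.89). The study reports *Zbtb16* as raised in these CD4- thymocytes, so this sum cannot tell whether other cells were present. Whether the RNA of *Klrb1c* and *Ncr1* came from these thymocytes or from other cells was not tested. The libraries also stood apart in sex-linked genes, with 34 and 25266 counts for *Xist* and 2450 and 0 for *Ddx3y*, so that the sex of the mice and the library cannot be told apart in any difference between them.

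All 10 genes had 1 CPM or more in both libraries. Without regard to gene length, mean CPM ran from 27.0 for *Orai1* to 247 for *Nfatc3*, with a median of 101. None of the 10 differed between the libraries by at least 2-fold at an adjusted p under 0.05 (two-sided exact binomial test of the counts, Benjamini-Hochberg over 15949 genes with at least 10 counts), where 1.52% of all genes tested did (0.94% higher and 0.577% lower in replicate 2). Without a minimum fold 0 of the 10 passed the adjusted p, against 16.3% of all genes (13.5% higher and 2.82% lower), and 2 (*Nfatc1* and *Ppp3cb*) had an unadjusted p under 0.05, against 27.7%. With 1 library on each side this test compares the libraries by counting error alone. In bulk RNA, fewer cells that express a gene and less RNA per cell cannot be told apart.

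**Figure D1:**
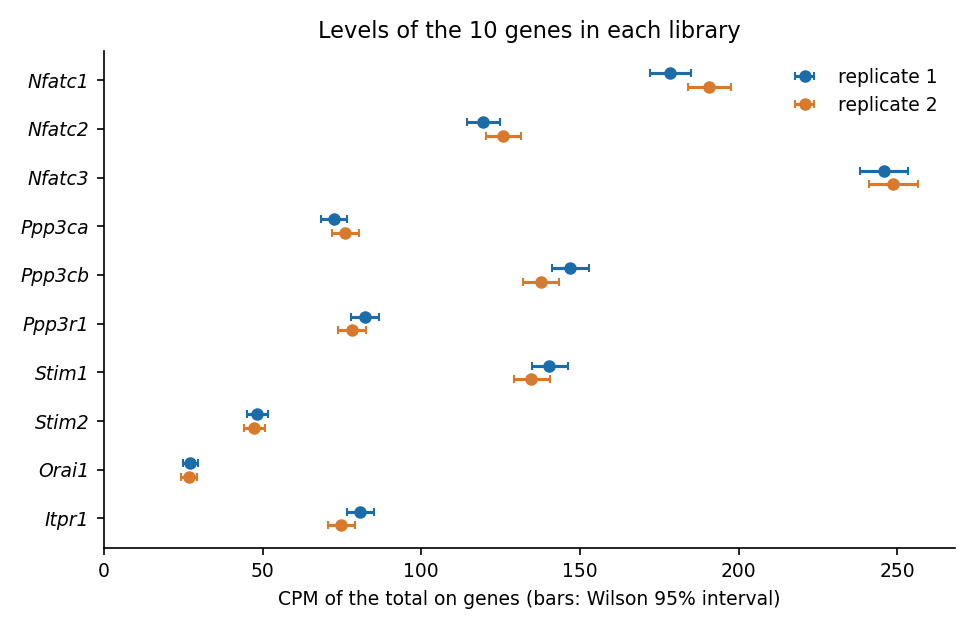
Level of each of the 10 genes in CPM (x axis, linear) in replicate 1 and replicate 2, with Wilson 95% intervals that cover counting error only. CPM is not corrected for gene length, and runs from 27.2 and 26.8 for *Orai1* to 246 and 249 for *Nfatc3*. The intervals of the libraries overlap for every gene.

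*Itpr1* encodes the type 1 IP3 receptor, a calcium channel of the endoplasmic reticulum, and lies at chr6:108213096-108551109 on the plus strand (GENCODE M21 on GRCm38, as for all positions below). Its counts were 1352 in replicate 1 against 1216 in replicate 2, which were 80.8 and 74.8 CPM. The higher value was in replicate 1, by a log2 ratio of replicate 2 to replicate 1 of -0.11 (counting interval -0.22 to 0.00, adjusted p = 0.189, exact binomial test). With TMM and with DESeq2 size factors it passed, at log2 ratios of -0.19 and -0.17 (adjusted p = 0.0138 and 0.0298, exact binomial test). The other IP3 receptors follow. *Itpr2* had 4972 and 4376 counts (297 and 269 CPM), and *Itpr3* had 3761 and 3734 (225 and 229.8 CPM). *Itpr2* was lower in replicate 2 with no minimum fold (log2 ratio -0.14, adjusted p = 4.97e-05, exact binomial test), where 2.82% of all genes were lower.

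To compare the levels of different genes, counts were set per length, as transcripts per 1000000 (TPM), from the counts and the merged length of a gene's annotated exons. *Itpr1* then stood at 13.8 ± 0.526 TPM (mean ± SD, n = 2), *Itpr2* at 62.4 ± 3.32 TPM and *Itpr3* at 82.2 ± 2.62 TPM. *Itpr1* thus held 8.93% of the family's TPM in replicate 1 and 8.55% in replicate 2. The order of *Itpr1* below both relatives did not depend on the length used: *Itpr2* was 4.50, 3.07 and 3.70 times *Itpr1*, and *Itpr3* 5.94, 3.21 and 3.01 times, with merged exons, the longest protein-coding transcript and the coding length. *Itpr2* and *Itpr3* changed places with the length, from a ratio of *Itpr3* to *Itpr2* of 1.32 with merged exons to 0.814 with the coding length.

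*Stim1* (chr7:102267806-102437319, plus strand) and *Stim2* (chr5:53998499-54121057, plus strand) encode the calcium sensors of the endoplasmic reticulum, of which STIM2 is known to respond to smaller losses of store calcium. *Stim1* had 2349 and 2189 counts (140.4 and 135 CPM). *Stim2* had 809 and 770 counts (48.3 and 47.4 CPM). With totals on genes the log2 ratios were -0.06 and -0.03 (adjusted p = 0.396 and 0.880, exact binomial test). With TMM and with DESeq2 size factors *Stim1* passed, lower in replicate 2 by log2 ratios of -0.14 and -0.12 (adjusted p = 0.0178 and 0.0472, exact binomial test). Per length *Stim1* was at 43.2 ± 0.558 TPM and *Stim2* at 30.4 ± 0.0618 TPM, so that *Stim1* held 59.0% and 58.5% of the pair in replicates 1 and 2. *Stim1* exceeded *Stim2* with each of the 3 lengths, by 1.42 ± 0.0213 times with merged exons, 3.25 ± 0.0486 times with the longest coding transcript and 2.73 ± 0.0408 times with the coding length.

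*Orai1* encodes the pore of the calcium release-activated calcium channel and lies at chr5:123015074-123030456 on the plus strand. With 455 and 435 counts (27.2 and 26.8 CPM) it had the fewest reads of the 10 genes, and its Wilson 95% intervals were 24.8 to 29.8 CPM and 24.4 to 29.4 CPM. The log2 ratio between the libraries was -0.02 (counting interval -0.22 to 0.17, adjusted p = 0.946, exact binomial test). Its transcript is short, and per length it stood at 38.3 ± 0.199 TPM, above *Stim2*. *Orai2*, which encodes a related channel subunit, had 3931 and 3645 counts (235 and 224 CPM), and 123 ± 2.03 TPM. *Orai2* exceeded *Orai1* with every length, by 3.21 ± 0.0695, 4.0 ± 0.0865 and 9.80 ± 0.212 times with merged exons, the longest coding transcript and the coding length. The coding length leaves out untranslated bases, whose reads were still counted. *Orai2* has 6077 exon bases and 792 coding bases, against 2295 and 912 for *Orai1*, so the last ratio is raised by this.

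*Orai3*, the third member, differed between the libraries. Replicate 1 held 297 counts of it and replicate 2 held 432, which were 17.7 and 26.6 CPM, a log2 ratio of 0.58 (counting interval 0.37 to 0.80, adjusted p = 2.28e-06, exact binomial test). This was below 2-fold, and with edgeR's exact test and a biological coefficient of variation of 0.1 the adjusted p was 0.594. Its TPM was 26.7 in replicate 1, below *Orai1* at 38.2, and 41.0 in replicate 2, above *Orai1* at 38.5, so the order of these genes was not settled by the replicates. *Orai1* held 20.2% and 19.1% of the family's TPM with merged exons, but 8.60% and 8.55% with the coding length.

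**Figure D2:**
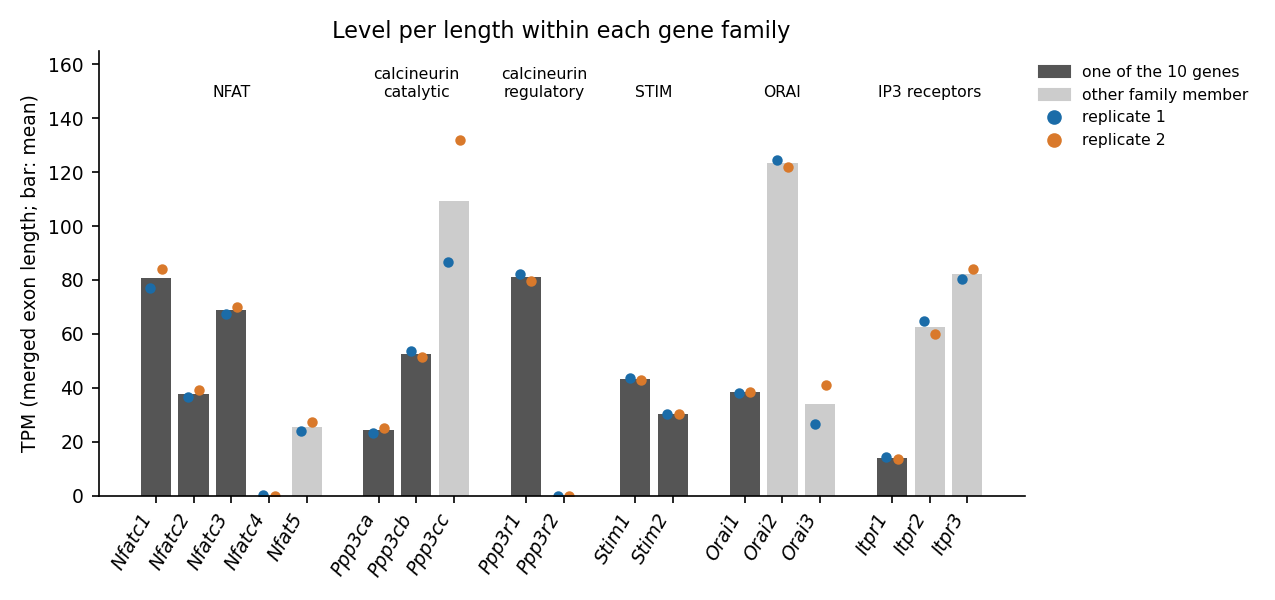
Level per length (y axis, TPM from merged exon length, linear from 0) of the 10 genes (dark bars) and the 8 other members of their families (light bars), with bars for the mean and points for replicates 1 and 2. *Orai2* (123 TPM) stands above *Orai1* (38.3 TPM), *Itpr2* and *Itpr3* above *Itpr1*, and the points of *Ppp3cc* (86.8 and 132 TPM) lie farthest apart.

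Calcineurin is a dimer of a catalytic subunit (from *Ppp3ca*, *Ppp3cb* or *Ppp3cc*) and a calcium-binding regulatory subunit (from *Ppp3r1* or *Ppp3r2*). *Ppp3cb* (chr14:20499364-20546573, minus strand) had 2460 and 2236 counts, or 147 and 138 CPM. *Ppp3ca* (chr3:136670124-136937727, plus strand), at 1212 and 1233 counts, had 72.4 and 75.9 CPM. The log2 ratios between the libraries were -0.10 for *Ppp3cb* and 0.07 for *Ppp3ca* (adjusted p = 0.111 and 0.501, exact binomial test). *Ppp3cb* passed with TMM and with DESeq2 size factors, at log2 ratios of -0.17 and -0.16 (adjusted p = 0.000887 and 0.00382, exact binomial test). Per length *Ppp3cb* was at 52.7 ± 1.61 TPM and *Ppp3ca* at 24.2 ± 1.19 TPM, and the ratio of *Ppp3cb* to *Ppp3ca* was 2.18 ± 0.173, 2.39 ± 0.190 and 1.91 ± 0.152 with the 3 lengths.

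*Ppp3cc*, the remaining catalytic subunit, went from 1345 counts in replicate 1 to 1941 in replicate 2, which were 80.4 and 119.5 CPM. It was higher in replicate 2 by a log2 ratio of 0.57 (counting interval 0.47 to 0.67, adjusted p = 4.05e-27, exact binomial test), below 2-fold, and with edgeR's exact test and a biological coefficient of variation of 0.1 the adjusted p was 0.416. Its place in the family was not stable. The ratio of *Ppp3cb* to *Ppp3cc* was 0.620 and 0.390 in replicates 1 and 2 with merged exons, but 1.82 and 1.15 with the coding length. *Ppp3ca* was below *Ppp3cc* in both libraries with every length, at 0.190 to 0.269 times with merged exons and 0.636 to 0.903 times with the coding length.

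*Ppp3r1* (chr11:17159263-17200375, plus strand) had 1376 and 1268 counts (82.2 and 78.1 CPM, log2 ratio -0.08, adjusted p = 0.422, exact binomial test). *Ppp3r2* had 0 counts in both libraries, so that *Ppp3r1* accounted for all detectable RNA of the regulatory subunits. Per length *Ppp3r1* was at 80.9 ± 1.69 TPM, with 87.7% of the tested genes that have a length below it. It exceeded *Ppp3ca* with each of the 3 lengths, by 3.35, 1.80 and 3.32 times, whereas its ratio to *Ppp3cb* was 1.54 with merged exons, 0.755 with the longest coding transcript and 1.74 with the coding length. *Ppp3r1* shares 462 bases of exon with *Wdr92* on the same strand, and 13.0% of its windows of 50 bases occur in transcripts of that gene. HTSeq leaves out reads that fall on several genes as ambiguous, and the effect on this value was not tested.

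*Nfatc3* had the most reads of the 10 genes. Its counts were 4111 and 4041, or 246 CPM (Wilson 95% interval 238 to 253) and 249 CPM (241 to 257). *Nfatc3* lies at chr8:106058840-106130537 on the plus strand. *Nfatc2* (chr2:168476410-168601657, minus strand) had 2000 and 2044 counts, or 119.5 and 126 CPM. The log2 ratios were 0.02 for *Nfatc3* and 0.07 for *Nfatc2* (adjusted p = 0.797 and 0.299, exact binomial test). NFATc2 and NFATc3 are the forms that resting T cells are known to hold in the cytosol.

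*Nfatc1*, whose short form is known to be induced by NFAT itself in activated T cells, lies on the minus strand of chromosome 18. Its counts were 2987 in replicate 1 against 3098 in replicate 2, or 179 CPM (Wilson 95% interval 172 to 185) and 191 CPM (184 to 198). Replicate 2 was higher by a log2 ratio of 0.10, the highest of the 10 genes (counting interval 0.02 to 0.17, adjusted p = 0.0599, exact binomial test). With TMM and with DESeq2 size factors the log2 ratio fell to 0.02 and 0.03 (adjusted p = 0.865 and 0.676, exact binomial test). Counts per gene do not separate its short and long forms.

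Per length *Nfatc1* was at 80.6 ± 5.06 TPM, *Nfatc3* at 68.8 ± 1.71 TPM and *Nfatc2* at 37.8 ± 1.98 TPM. *Nfatc2* was the lowest of these with each length, and *Nfatc1* was 2.13, 2.14 and 1.49 times *Nfatc2*. The order of *Nfatc1* and *Nfatc3* turned with the length, from a ratio of *Nfatc3* to *Nfatc1* of 0.854 ± 0.0324 with merged exons to 1.07 ± 0.0408 with the longest coding transcript and 1.17 ± 0.0444 with the coding length. Of the relatives outside the 10, *Nfatc4* had 2 and 0 counts, under the floor in both libraries. *Nfat5*, which responds to osmotic stress and is not regulated by calcineurin, had 2293 and 2458 counts and 25.6 ± 2.20 TPM. *Nfat5* was higher in replicate 2 with no minimum fold (log2 ratio 0.14, adjusted p = 0.00686, exact binomial test), where 13.5% of all genes were higher. With this scaling the median log2 ratio of all genes tested was 0.08. The 3 listed genes held 88.0% of the family's TPM.

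Set in order of TPM with merged exons, *Ppp3r1* and *Nfatc1* came first with ranges over the libraries that overlapped (79.7 to 82.1 and 77.1 to 84.2 TPM). *Nfatc3*, *Ppp3cb* and *Stim1* followed at 68.8, 52.7 and 43.2 TPM. *Orai1* and *Nfatc2* were next and overlapped as well (38.2 to 38.5 and 36.4 to 39.2 TPM), then *Stim2* at 30.4, *Ppp3ca* at 24.2 and *Itpr1* at 13.8 TPM. *Itpr1* was lowest and *Stim2* among the lowest 3 with every length. The first place went to *Nfatc3* at 125 TPM with the longest coding transcript and to *Ppp3r1* at 214 TPM with the coding length. Even *Itpr1* had 50.3% of the tested genes below it.

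**Figure D3:**
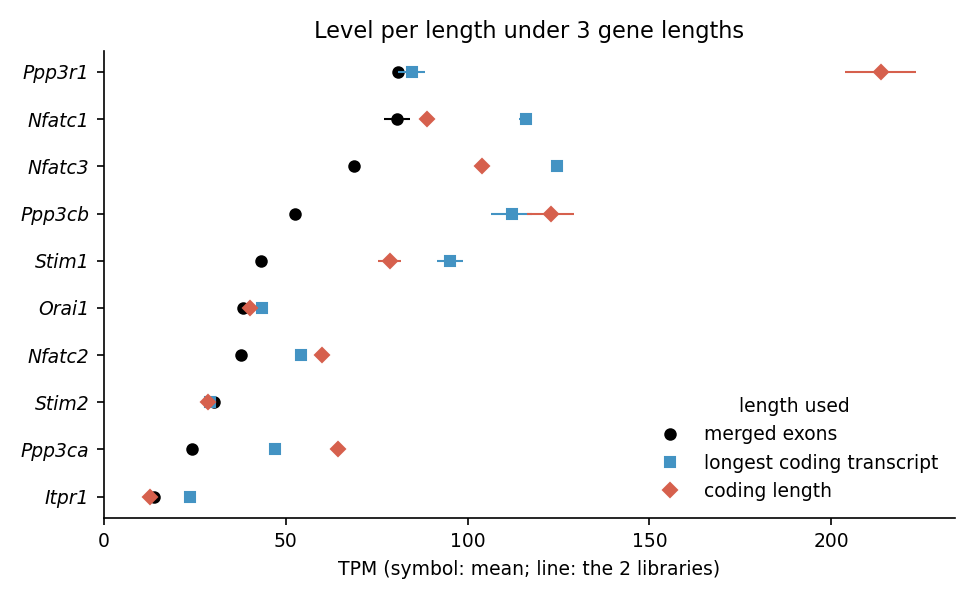
TPM of the 10 genes (x axis, linear) with 3 gene lengths: merged exons, the longest protein-coding transcript and the coding length. Symbols show the mean of the 2 libraries and lines their range. *Itpr1* is lowest with all 3 lengths, whereas *Ppp3r1* moves from 80.9 to 214 TPM. Levels with different lengths are not on the same scale, since all but merged exons are scaled over symbols with a protein-coding transcript only. With the coding length, counts of the whole gene are divided by coding bases alone (510 for *Ppp3r1*, against 3228 exon bases).

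With totals on genes, the log2 ratios of these genes ran from -0.11 for *Itpr1* to 0.10 for *Nfatc1*, with a median of -0.03 against 0.08 over all genes tested, and a median absolute value of 0.07 against 0.17. With TMM they ran from -0.19 to 0.02 with a median of -0.10 (all genes -0.0027), and with DESeq2 size factors from -0.17 to 0.03 with a median of -0.09 (all genes 0.01). Each of the 10 genes had at least 435 counts in a library, whereas the genes tested needed only 10 counts over both. With TMM library sizes or DESeq2 size factors 3 of the 10 (*Ppp3cb*, *Stim1* and *Itpr1*) passed the adjusted p with no minimum fold, each lower in replicate 2, where 10.6% and 10.9% of all genes passed. With edgeR's exact test and a biological coefficient of variation of 0.1 none of the 10 passed, where 0.464% of all genes did, and none had an unadjusted p under 0.05, where 5.17% of all genes did. With TMM 4 of the 10 had an unadjusted p under 0.05 (*Ppp3r1* beside those 3), against 22.1%.

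**Figure D4:**
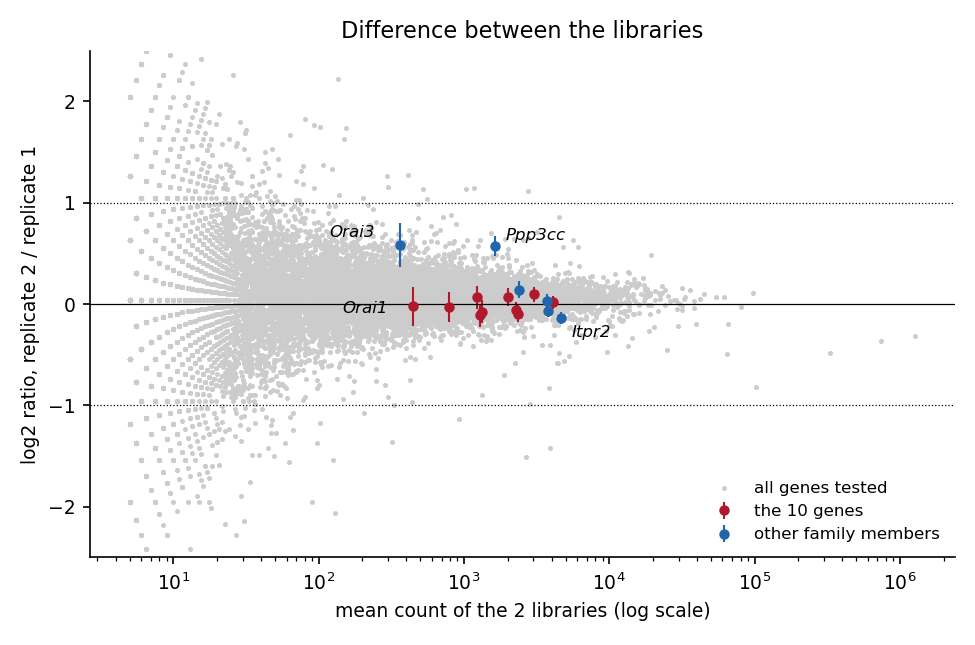
Log2 ratio of replicate 2 to replicate 1 (y axis) against the mean count of the libraries (x axis, log scale) for the genes tested (grey), the 10 genes (red) and 6 other family members (blue), with 95% counting intervals. Dotted lines mark 2-fold, and 72 genes beyond the axis and those at 0 in a library are not drawn. Scaled by the totals on genes, the 10 genes lie between -0.11 and 0.10, and *Ppp3cc* and *Orai3* lie at 0.57 and 0.58.

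Of the 10 genes, *Nfatc1*, *Nfatc2*, *Ppp3ca*, *Ppp3cb* and *Stim1* (5 of 10) had neither overlapping exons nor shared windows of 50 bases. *Nfatc3* overlaps *Esrp2* by 219 bases and *Itpr1* overlaps *Gm44040* and *Gm44101* by 289 bases, in each case on the opposite strand, and 1.70% and 1.07% of their windows occur in transcripts of other genes. *Orai1* overlaps *Gm2479* by 7 bases on the opposite strand, and 0.425% of the windows of *Stim2* occur elsewhere. Whether the counting used strand is not given in the sources used here, so reads of a gene and its antisense partner may not have been told apart.

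Genes for the steps above IP3 had the highest median level of the lists. All 8 genes of proximal TCR signalling were at 1 CPM or more in both libraries, and their median TPM was 211, against 40.8 for the 10 genes and 13.5 for all genes tested. *Lat*, the membrane adaptor, was highest at 636 ± 40.5 TPM. *Txk*, a kinase of the TEC family, was at 39.3 ± 3.51 TPM, and *Plcg2*, the phospholipase C-γ of B cells, was lowest at 6.80 ± 0.674 TPM. None differed 2-fold, and 4 (*Zap70*, *Lat*, *Txk* and *Vav1*) were higher in replicate 2 with no minimum fold, by log2 ratios of 0.10 to 0.16, where 13.5% of all genes were higher. With this scaling the median log2 ratio of all genes tested was itself 0.08, close to the lower of these values.

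Of 10 regulators of STIM and ORAI, 7 were at 1 CPM or more in both libraries. *Saraf*, whose product turns off STIM1, was highest at 702 ± 29.2 TPM, and *Pdia3*, an oxidoreductase of the endoplasmic reticulum, was at 386 ± 0.0233 TPM. *Cracr2a*, which encodes a cytosolic regulator of ORAI1, and *Stimate*, an endoplasmic reticulum protein that promotes STIM1 activation, were the lowest of the 7 at 13.7 ± 1.49 and 11.2 ± 0.606 TPM. *Tmem178* had 0 counts and *Jph4* 1 and 0, under the floor, while *Cracr2b* had 7 and 6 counts. *Saraf* and *Esyt1* were lower in replicate 2 with no minimum fold, each by a log2 ratio of -0.12, and none was higher, where 2.82% of all genes were lower and 13.5% higher.

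Among calmodulin, calcineurin inhibitors, anchors and drug receptors, 9 of 10 genes were at 1 CPM or more. *Ppia*, which encodes cyclophilin A, the receptor of cyclosporin A, was highest at 484 ± 32.3 TPM. The inhibitor gene *Rcan1* was low, with 101 and 138 counts and 7.69 ± 1.96 TPM, and *Akap5*, an anchor of calcineurin, was lowest at 1.52 ± 0.118 TPM. *Rcan2* had 0 and 1 counts. *Calm2*, *Calm3*, *Cabin1* and *Ppia* were higher in replicate 2 with no minimum fold, by log2 ratios of 0.10 to 0.21, where 13.5% of all genes were higher and the median log2 ratio of all genes was 0.08.

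Of 11 genes for NFAT kinases, nuclear export and retention in the cytosol, 9 were at 1 CPM or more. *Csnk1d*, a casein kinase 1, and *Gsk3a* led at 138 ± 9.55 and 113 ± 12.4 TPM, and the lowest of the 9 were *Homer3*, a scaffold that retains NFAT, at 16.9 ± 3.76 TPM and *Csnk1e* at 12.8 ± 0.472 TPM. *Homer2* had 13 and 21 counts, and the non-coding RNA *Nron* 6 and 8. *Gsk3a*, *Csnk1d* and *Homer3* were higher in replicate 2 with no minimum fold, with log2 ratios of 0.19, 0.11 and 0.42, where 13.5% of all genes were higher. Over all genes tested the median log2 ratio was 0.08.

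Of 22 pumps, mitochondrial uptake genes and channels, 18 were at 1 CPM or more. *Atp2a3*, the pump SERCA3 that refills the store, was highest at 426 ± 0.966 TPM, and *Kcna3*, the potassium channel Kv1.3, followed at 152 ± 6.64 TPM. *Ryr3* and *Ryr1*, which encode ryanodine receptors, were lowest at 0.303 ± 0.0407 and 0.176 ± 0.0255 TPM. *Atp2b2*, *Atp2b3*, *Ryr2* and *P2rx1* were under the floor in both libraries. *Smdt1*, a subunit of the mitochondrial calcium uniporter, was higher in replicate 2 with no minimum fold (log2 ratio 0.20), and *Kcnn4*, a calcium-activated potassium channel, was lower (-0.23), where 13.5% of all genes were higher and 2.82% lower. Here too the median log2 ratio of all genes was 0.08.

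Genes known as NFAT targets in T cells were at moderate levels, with 10 of 13 at 1 CPM or more and a median TPM of 17.3. *Pdcd1*, which encodes the receptor PD-1, had 431 and 454 counts and 45.4 ± 3.34 TPM, and *Nr4a1*, an early response gene, had 687 and 655 counts and 37.8 ± 0.122 TPM. *Egr3* and *Ifng* were the lowest of the 10 at 11.9 ± 0.956 and 9.80 ± 2.55 TPM. The cytokine genes *Il2* and *Csf2* had 3 and 1 counts and 1 and 0 counts, and *Il4*, whose promoter stretch holds 2 of the matches shown above, had 11 and 7 counts. None of the 11 targets tested passed the adjusted p between the libraries (exact binomial test), with or without a minimum fold, where 16.3% of all genes did without one.

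**Figure D5:**
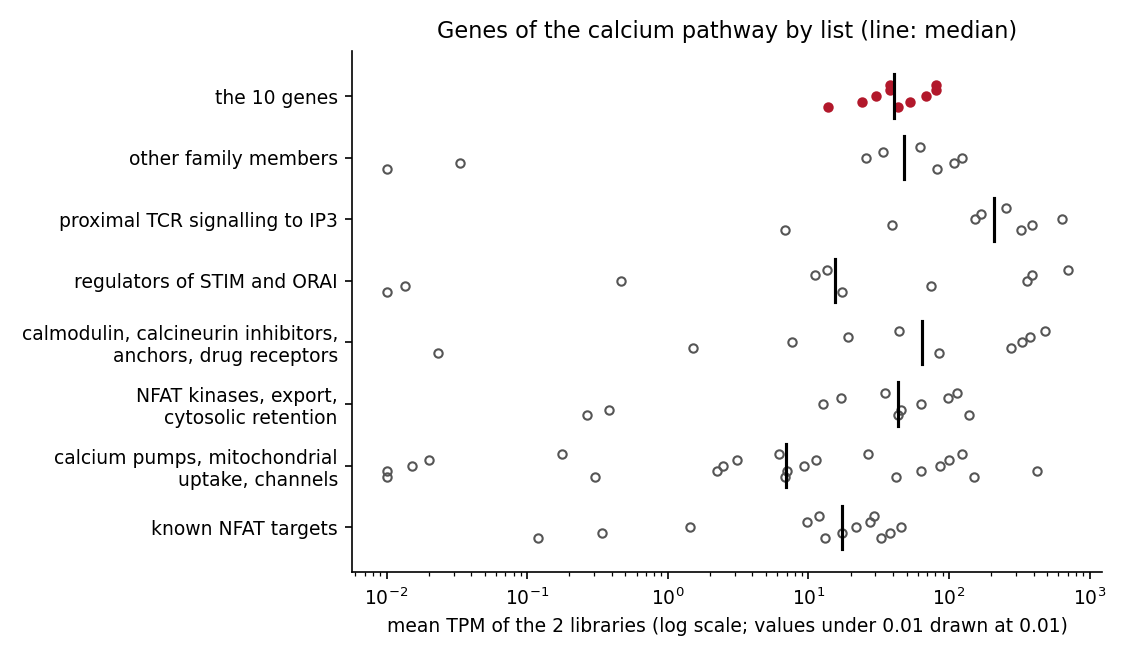
Mean TPM over the 2 libraries (x axis, log scale, values under 0.01 drawn at 0.01) of the 10 genes (filled), of the other family members and of 6 lists of pathway genes (open), with a line at each list's median. The median is 40.8 TPM for the 10 genes, 211 TPM for proximal TCR signalling and 17.3 TPM for known NFAT targets.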

How the data were processed

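RNA-seq counts of 2 libraries of sorted mature thymocytes were analysed. Per the study's methods, poly(A) libraries were sequenced as single-end reads, and the submitters' processing notes name TopHat2 2.1.1, HTSeq 0.6.1 and mm10 (GRCm38). The authors deposited raw whole-number counts per gene symbol, without normalization. The gene annotation and strand setting are not given in the sources used here. No feature took 55.9% of the uniquely aligned reads in both libraries, ambiguous reads took 3.52% and 2.92%, and these lines were kept out of the totals. The ribosomal RNA genes *Gm42418* and *Rn18s-rs5* took 13.6% and 10.8% of the counts on genes.

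Both samples belong to 1 group by their labels, with replicate numbers from the titles. Nothing in the labels says that they came from separate mice, but the libraries differ in sex-linked genes. CPM was computed from the total on genes, with Wilson 95% intervals. Neither these intervals nor the floor of 3 counts hold any error beyond that of counting (the reads carry no molecular identifiers, so they do not count separate molecules). TPM with merged exons was computed over 46395 symbols with exons in GENCODE M21 (GRCm38). With the other lengths it was computed only over symbols with a protein-coding transcript, of which there were 21172. TPM values with different lengths are therefore not on the same scale, whereas ratios and shares within a length are not affected by this. Every length divided the counts of the whole gene, reads of untranslated bases included. The coding length therefore raises genes with long untranslated parts, in ratios and shares as well. Libraries were compared over all genes with at least 10 counts by the exact binomial test (two-sided), and p-values were adjusted after Benjamini and Hochberg (Python 3.11.15, scipy 1.17.1, statsmodels 0.14.6). A gene was called when it changed at least 2-fold with an adjusted p under 0.05. The script was first tested on simulated data. No quasi-likelihood fit could be made with 1 library per side. Alternatives were TMM factors of edgeR 4.0.16 (0.973 and 1.03), size factors of DESeq2 1.42.0 (0.993 and 1.01), totals from which 393 mitochondrial and ribosomal RNA genes were removed, edgeR's exact test with a fixed biological coefficient of variation of 0.1 (R 4.3.3), other count and CPM minimums, other gene lengths and each replicate left out.

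The 10 genes, the pathway lists and the markers were chosen with earlier results of these data known. Named are the 10 genes, the 8 other family members, in each list the 2 highest and 2 lowest by TPM among genes at 1 CPM or more in both libraries, every gene under the floor in both and every gene called. Other list genes that are named, being those past the adjusted p with no minimum fold or those below 1 CPM, were chosen after their values were seen. Some genes that this rule names are not reported here. *Stimate* is listed as *Tmem110* in the deposited counts. Protein sequences and the wild-type libraries of the study were not analysed here.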

Additional observations from a re-analysis of the deposited data

How the results depend on the processing

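No paired analysis was possible because the labels give a single group, in which the replicate numbers have no partner. No gene of the 10 was called at 2-fold under any alternative that was run. All genes called at 2-fold numbered 242, but 60 with edgeR's exact test, 55 with at least 100 counts and 2596 with no minimum fold. Past the adjusted p with no minimum fold, the count among the 10 genes was 0 (16.3% of all genes), but 3 with TMM (10.6%), 3 with DESeq2 size factors (10.9%), 2 (*Ppp3cb* and *Itpr1*) without mitochondrial and ribosomal RNA genes (11%), and 0 with edgeR's exact test (0.464%). The log2 ratio changed sign with TMM for *Nfatc2* (-0.0046), *Nfatc3* (-0.061) and *Ppp3ca* (-0.011), and for *Nfatc3* also with DESeq2 size factors (-0.044) and without mitochondrial and ribosomal RNA genes (-0.039). These values did not pass the adjusted p. Without those genes in the totals the median level of the 10 genes was 118 CPM in place of 101. The median TPM of 40.8 became 69.4 with the longest coding transcript and 71.5 with the coding length. Those values were scaled over symbols with a protein-coding transcript only, so the rise is not one of length alone. With these lengths the listed members held 90.1% and 85.7% of the NFAT family's TPM (88.0% with merged exons), 51.4% and 68.6% of the calcineurin catalytic subunits (41.9%), 17.5% and 8.58% of the ORAI family (19.6%), and 13.7% and 13.0% of the IP3 receptors (8.74%). Depth limits the low genes, since values at or under 3 counts, such as those of *Nfatc4* and *Il2*, cannot be told from 0.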
